A study of Mus musculus with 9 samples.

Results

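The genes described here encode matrix metalloproteinases (MMPs) and their tissue inhibitors (TIMPs), taken by name from a table of mouse liver expression: Mmp2, Mmp3, Mmp12, Mmp13, Mmp14, Mmp15, Mmp19, Timp1, Timp2, and Timp3. All 10 were found among the 24341 genes of the table. Mmp8 and Mmp9, which neutrophils store in granules, were left out of the group and serve only as a reference. The livers came from 9 wild-type C57BL/6 mice, sampled 48 hours after treatment. Of these, 3 mice (2, 5, and 9) received anti-CD40, the agonist CD40 antibody FGK45, and 6 mice (3, 4, 7, 8, 11, and 12) were controls labelled PBS. The labels give no age or sex. Each mouse gave 1 whole-liver library, and in whole liver fewer cells of a type and less RNA per cell cannot be told apart. Under the study's methods, anti-CD40–treated mice whose blood B cells did not fall could be excluded, and some experiments used mice from a colony with Cre under the Pdx promoter. The labels give neither for these mice.

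MMPs are zinc proteases that cut collagens, elastin, proteoglycans, and other proteins outside the cell. Most are made as inactive proenzymes that are opened by other proteases, including plasmin and furin. TIMPs bind the active site of an MMP and block it. TIMP2 also joins the membrane-bound MMP14 in a complex that activates pro-MMP2, and TIMP3 stays in the matrix and inhibits ADAM17, the protease that sheds TNF. In injured liver, stellate cells are a known source of TIMP1 and MMP2, and macrophages are a known source of MMP12 and MMP13. The study asked whether a change of MMP expression in the liver makes it sensitive to chemotherapy given after anti-CD40. The paper reports altered MMP and TIMP expression in the liver after anti-CD40. In its tumor-free mice, neither a broad MMP inhibitor nor an inhibitor of MMP13 stopped the lethal weight loss. The paper concludes that MMPs were not the main mediators of this toxicity.

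Mmp13, Mmp12, and Mmp3 lie close together on chromosome 9, and their promoters are shown because they share short sequence elements that the promoters of Mmp14 and Timp1, shown for contrast, lack. The sequences come from RefSeq (build GRCm38.p6, which has the coordinates of mm10) and are written 5′ to 3′ from 110 bases before the transcription start to 30 bases after it. Capitals mark matches, on either strand, to 3 motifs. The AP-1 site was searched as TGANTCA. The letters searched for the TATA box were TATAAA. A GC box was taken as GGGCGG.
Mmp3, chr9:7445712-7445851, + strand: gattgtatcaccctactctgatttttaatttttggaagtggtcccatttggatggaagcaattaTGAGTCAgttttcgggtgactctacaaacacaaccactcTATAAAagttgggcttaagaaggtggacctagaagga
Mmp12, chr9:7347264-7347403, + strand: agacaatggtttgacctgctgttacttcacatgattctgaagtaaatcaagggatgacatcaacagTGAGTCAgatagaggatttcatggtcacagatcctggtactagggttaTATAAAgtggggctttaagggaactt
Mmp13, chr9:7272404-7272543, + strand: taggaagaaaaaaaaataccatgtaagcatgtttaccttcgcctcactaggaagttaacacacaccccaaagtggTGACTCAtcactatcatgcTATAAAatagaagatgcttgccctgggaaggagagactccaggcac
Mmp14, chr14:54431488-54431627, + strand: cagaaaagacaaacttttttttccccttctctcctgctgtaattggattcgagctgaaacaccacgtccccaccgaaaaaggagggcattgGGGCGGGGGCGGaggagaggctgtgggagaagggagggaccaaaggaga
Timp1, chrX:20870056-20870195, + strand: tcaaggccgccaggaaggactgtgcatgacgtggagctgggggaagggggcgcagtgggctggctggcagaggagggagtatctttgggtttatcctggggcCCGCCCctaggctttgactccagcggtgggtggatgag

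RefSeq promoter entries of 300 bases were matched for 8 of the 10 genes, the others being Mmp2 and Mmp19. An AP-1 match was found in Mmp3, Mmp12, and Mmp13 and in none of the other matched genes. It lay 46 to 40 bases before the start in Mmp3, 44 to 38 bases before it in Mmp12, and 35 to 29 bases before it in Mmp13. The same 3 promoters each held the letters of a TATA box, 7 to 2 bases before the start in Mmp3, 16 to 11 bases before it in Mmp13, and at bases 5 to 10 after it in Mmp12. In contrast, GC box matches were found in Mmp14, Mmp15, Timp1, Timp2, and Timp3. Of 32851 mouse promoters of this length, 7.81% held the AP-1 letters, 13.6% the TATA box letters, and 35.7% the GC box letters. A STAT site (TTCNNNGAA) was searched as well and matched none of these promoters, against 8.30% of all promoters. No match overlapped another, and the remaining Mmp12 entry, at a start farther upstream, held none of the 4 motifs. These matches describe letters only, and binding was not measured.

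Expression was given as FPKM, a read count scaled by the length of the transcript and by the size of the library. The libraries were read from the 3′ end, so dividing by transcript length does not make levels of different genes comparable, and levels were not ranked between genes. Where values of different genes are subtracted or summed, only the difference between the groups of mice is read. Changes are differences of mean log2(FPKM + 0.1), which understate the fold of genes with low FPKM, and were tested with limma across 13807 genes with adjustment over all of them. Each gene was also tested alone with a 2-sided exact permutation test, in which 3 mice against 6 can give no p below 0.0238. The libraries had relative depths of 0.870 to 1.13, and 14684 to 15545 genes were above the floor of the table, 0.01 FPKM. The liver label was checked against 7 hepatocyte genes, whose summed FPKM was 11753 to 22139 in control mice and 3877 to 4686 in anti-CD40–treated mice. The library of anti-CD40–treated mouse 5 stood apart in genes of the exocrine pancreas, with a summed FPKM of 498 against 0.540 to 2.65 in the other 8 mice. Without that mouse, the 6 changes called below were called in the same direction.

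Of the 9 genes abundant enough to be tested, Timp1, Mmp12, Mmp3, and Mmp14 rose after anti-CD40, whereas Timp2 and Mmp19 fell. Mmp2, Mmp15, and Timp3 did not pass the test. Mmp13 was below the limit for testing, a mean of 0.1 FPKM over the 9 mice, which the 9 other genes also passed on their control mice alone. A change was called at an adjusted p under 0.05 in 6 of 9 genes (4 higher, 2 lower), beside 45.1% of all genes tested (23.5% higher, 21.7% lower). The 2 groups of mice did not overlap in 6 of the 9 genes, beside 42.4% of all genes. The median log2 change was 0.15 over the 9 genes and 0.0056 over all genes. Calls were thus common in these livers, and no test set these genes against the others. A larger log2 change than that of Timp1 was found in 34 genes, than that of Mmp12 in 155, than that of Mmp3 in 209, and than that of Mmp14 in 1011.

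**Figure D1:**
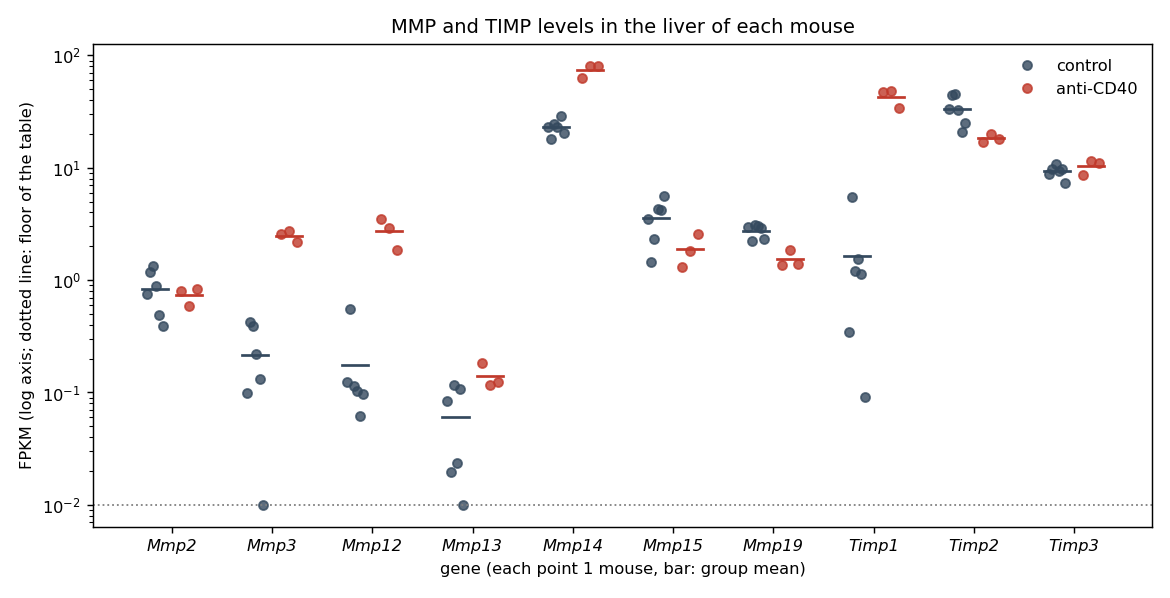
FPKM of each of the 10 genes (log axis) in each mouse, with control mice (n = 6) and anti-CD40–treated mice (n = 3) side by side; each point is 1 mouse, bars are group means, and the dotted line is the floor of the table. The groups are separate for Mmp3, Mmp12, Mmp14, Mmp19, Timp1, and Timp2 and overlap for Mmp2, Mmp13, Mmp15, and Timp3.

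Timp1, an inhibitor of most secreted MMPs and an early product of inflamed liver, had the largest log2 increase of the 9 genes tested. It was at 46.7, 48.0, and 33.9 FPKM in anti-CD40–treated mice 2, 5, and 9. In control mice it ranged from 0.0919 to 5.46 FPKM with a median of 1.17. The lowest treated mouse was thus above the highest control, although the controls themselves were 59.4-fold apart. The mean was 42.9 ± 7.82 FPKM (SD, n = 3) against 1.63 ± 1.95 FPKM (SD, n = 6), a ratio of 26.3. The log2 change was 5.35 (SE 0.83, 95% interval 3.50 to 7.20), with a limma adjusted p of 4.724e-04 and an exact permutation p of 0.0238.

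Timp2 and Timp3 were not called higher in this fit. Timp2, the inhibitor that takes part in MMP2 activation, was at 17.1, 19.9, and 18.1 FPKM after anti-CD40. Its control values ran from 20.8 to 45.5 FPKM around a median of 32.7, so all treated mice were below all controls. The mean was 18.4 ± 1.44 FPKM (SD, n = 3) against 33.5 ± 9.84 FPKM (SD, n = 6). Its log2 change was -0.81 (SE 0.23, limma adjusted p = 0.0167). This call was lost without mouse 2 (adjusted p = 0.0667) or mouse 9 (0.0531), with every gene of the table tested (0.0558), and when Saa1, Saa2, and Saa3, which encode abundant acute-phase proteins, were left out and the mice rescaled to the same total (log2 change -0.45, adjusted p = 0.157).

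Timp3, the matrix-bound inhibitor, was at 8.56, 11.6, and 11.0 FPKM after anti-CD40. Controls spanned 7.38 to 10.8 FPKM with a median of 9.50, and the groups overlapped. The log2 change was 0.15 (95% interval -0.17 to 0.48, limma adjusted p = 0.410), and only the rescaling without the Saa genes gave a call (log2 change 0.52, adjusted p = 0.0207). That rescaling moved the median of all genes to 0.35, and relative to this median Timp3 stood at 0.17 and Timp2 at -0.79. On the log2 scale the change of Timp1 was larger than that of Timp2 by 6.16 and than that of Timp3 by 5.20 (exact permutation p = 0.0238 each, also after adjustment over the 4 pairs of genes compared). This is the smallest p that 3 mice against 6 can give, and all 4 pairs reached it. For Timp1 and Timp2 no other p was possible, because their groups were already separate in opposite directions. It adds nothing there to the tests of each gene. The difference log2 Timp1 minus log2 Timp2 was 0.90 to 1.45 in treated mice and -7.04 to -2.99 in controls.

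**Figure D2:**
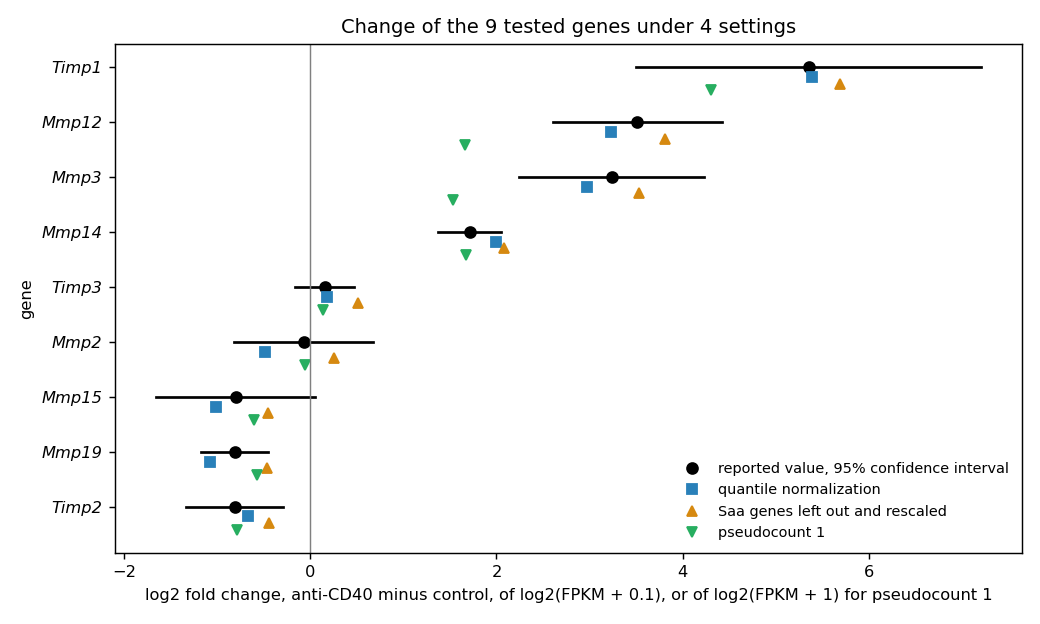
Log2 fold change (anti-CD40 minus control) of each tested gene with its 95% interval, beside its values under other settings; the axis gives the pseudocount of each. The increases of Timp1, Mmp12, Mmp3, and Mmp14 remained above 0 in every setting drawn, and the sizes for Mmp3 and Mmp12 moved most with the pseudocount.

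The neighbours Mmp12 and Mmp3 rose from low levels. Mmp12, the macrophage metalloelastase, was at 3.47, 2.93, and 1.86 FPKM in mice 2, 5, and 9, which corresponds to 262, 208, and 123 reads by the smallest whole read numbers that match the FPKM steps. Controls lay between 0.0622 and 0.555 FPKM (median 0.108), or 4 to 39 reads. The groups were separate, and control mouse 4 had the highest value of its group. The means were 2.75 ± 0.820 FPKM (SD, n = 3) and 0.176 ± 0.187 FPKM (SD, n = 6), a ratio of 15.7. This was a log2 change of 3.51 (SE 0.41, 95% interval 2.61 to 4.42) with a limma adjusted p of 6.758e-05.

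Mmp3 encodes stromelysin 1, which cuts proteoglycans and laminin and can open other proenzymes. It was at 2.55, 2.74, and 2.20 FPKM (90, 91, and 68 reads) after anti-CD40. In controls the values reached from the floor of 0.01 to 0.425 FPKM (median 0.177), or 0 to 14 reads. All treated mice were above all controls. The means were 2.49 ± 0.274 FPKM (SD, n = 3) and 0.213 ± 0.166 FPKM (SD, n = 6), a ratio of 11.7. The log2 change was 3.24 (SE 0.45, limma adjusted p = 2.171e-04). Because both genes were low in controls, the pseudocount set the size of the log2 change: with 1 in place of 0.1 it was 1.53 for Mmp3 and 1.66 for Mmp12, and with 0.01 it was 4.03 and 4.24. Both remained called.

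Mmp13, the main collagenase of the mouse, is the third gene of this cluster and was close to the limit of detection. It was at 0.183, 0.116, and 0.125 FPKM in treated mice, or 10, 6, and 6 reads. Controls ran from 0.01 to 0.117 FPKM (median 0.0543), or 0 to 6 reads. The groups overlapped, since control mouse 7 was above treated mouse 5. All 3 treated mice were above the control median. The exact permutation p was 0.0476 (n = 3 and 6) and 0.0238 without Saa1, Saa2, and Saa3, but 0.381 with quantile normalization and 0.0714 without control 3, 4, 8, 11, or 12. With every gene of the table tested, limma gave an adjusted p of 0.137. Without treated mouse 2 or 9 the exact permutation p was 0.143. Mmp13 was thus not called by limma, and its exact permutation p depended on the setting.

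Mmp14, the membrane-type protease that activates pro-MMP2 and cuts collagen at the cell surface, rose in all treated mice. It was at 63.3, 80.5, and 80.1 FPKM after anti-CD40, and its controls lay between 18.0 and 28.7 FPKM with a median of 22.9. Both groups were tight and well apart. The mean was 74.6 ± 9.81 FPKM (SD, n = 3) against 22.8 ± 3.65 FPKM (SD, n = 6), a ratio of 3.27. On the log2 scale Mmp14 changed by 1.71 (SE 0.15, 95% interval 1.37 to 2.05, limma adjusted p = 1.206e-05).

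Mmp15, the related membrane-type protease, did not follow. Its treated mice were at 1.32, 1.80, and 2.58 FPKM, within the control range of 1.44 to 5.65 FPKM (median 3.82) except for mouse 2. Its change on the log2 scale was -0.80 (95% interval -1.65 to 0.05, limma adjusted p = 0.115). Leaving out control mouse 4, the lowest of its group, gave -1.03 with an adjusted p of 0.0145. The change of Mmp14 exceeded that of Mmp15 by 2.51 on the log2 scale (exact permutation p = 0.0238 after adjustment over 4 pairs).

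Mmp2, the gelatinase that MMP14 activates, was at 0.795, 0.592, and 0.835 FPKM (50, 35, and 46 reads) in treated mice. Control values from 0.391 to 1.34 FPKM (median 0.823) surrounded them. Its log2 change was -0.070 (95% interval -0.82 to 0.68, limma adjusted p = 0.882), an interval that holds both a fall and a rise of moderate size. Mmp14 rose more than Mmp2 by 1.78 on the log2 scale (exact permutation p = 0.0238 after adjustment over 4 pairs). Activation of the MMP2 protein was not measured.

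Mmp19, a protease of basement membrane proteins, was at 1.36, 1.84, and 1.40 FPKM after anti-CD40. All 6 controls were above these, from 2.23 to 3.07 FPKM with a median of 2.95. The mean was 1.53 ± 0.268 FPKM (SD, n = 3) against 2.76 ± 0.383 FPKM (SD, n = 6). Mmp19 had a log2 change of -0.81 (SE 0.16, limma adjusted p = 0.00215), and the fall was called without each mouse in turn and under each scaling. Without the Saa genes it was -0.46 (adjusted p = 0.0371), or -0.81 relative to the median of all genes under that scaling.

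Several of these genes share their place in the genome with others. In mm10 the table gives Mmp13 at chr9:7272514-7283333, Mmp12 at chr9:7347374-7360461, Mmp3 at chr9:7445822-7455974, Mmp14 at chr14:54431604-54441258, Mmp2 at chr8:92827328-92853420, and Mmp15 at chr8:95352337-95374293. For the remaining genes the table gives 1 position to several names. Timp1 shares chrX:20848543-20920918 with Syn1, Araf, and Mir5617, Timp3 shares chr10:86048746-86498896 with Syn3 and 4930486F22Rik, Timp2 shares chr11:118301061-118355411 with BC100451, and Mmp19 shares chr10:128790910-128804370 with Tmem198b. In the GENCODE vM21 annotation, Timp1 lies inside Syn1 and Timp3 inside Syn3, each on the opposite strand. No exon of Timp1 overlaps an exon of Syn1, and 1 pair of exons overlaps between Timp3 and Syn3. The strand setting of the counting is not given in the sources used here, so reads from such a pair may not have been told apart. Syn1 was at 0.131 ± 0.0390 FPKM in treated mice (SD, n = 3) and 0.0472 ± 0.0319 FPKM in controls (SD, n = 6), with 6 to 10 and 0 to 5 reads. It was below the limit for testing, and limma gave it an adjusted p of 0.0466 with every gene tested. Syn3 fell (0.250 ± 0.0278 against 0.448 ± 0.0964 FPKM, log2 change -0.63, limma adjusted p = 0.0226), a call lost in the rescaling without the Saa genes (adjusted p = 0.133) and without treated mouse 2 (0.0542), 5 (0.0869), or 9 (0.0558).

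The genes whose pattern over the 9 mice was most like that of Timp1 were Ms4a1, which encodes the B-cell protein CD20, Glipr1, and Ccl2, a monocyte chemoattractant. Their root mean square differences from Timp1, after each gene was centred on its mean of log2(FPKM + 0.1), were 0.72, 0.78, and 0.80. For Mmp14 the nearest genes were Spsb1 (0.14), Cerkl (0.16), and Tubb6 (0.18). These values describe likeness and were not tested.

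Other proteins that act with MMPs moved in both directions. Over all genes tested, 23.5% were higher and 21.7% lower. Among 14 other MMPs, 3 were abundant enough to be tested and 1 rose, Mmp23 (4.09 ± 1.07 against 2.06 ± 0.895 FPKM, log2 change 1.04, limma adjusted p = 0.0329). The median of the 3 was 0.21, the value of Mmp24, which was not called. The control mean of Mmp24 (0.0962 FPKM) was below the 0.1 FPKM limit, so it was tested only because of its treated mice. With quantile normalization the median of the 3 turned to -0.16, beside -0.091 over all genes. That setting also ended the call of Mmp23 (limma adjusted p = 0.0543), as did testing every gene and leaving out mouse 2, 5, 9, 3, or 11. The reference genes Mmp8, neutrophil collagenase, and Mmp9, gelatinase B, rose by 5.41 and 3.94 on the log2 scale (limma adjusted p = 6.793e-08 and 7.685e-07). Mmp8 was at 5.52 ± 0.853 FPKM after anti-CD40, and in controls at 0.0323 ± 0.0199 FPKM, or 0 to 3 reads. Its control mean was below the 0.1 FPKM limit, so it was tested only because of its treated mice.

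Of 7 other inhibitors, A2m rose and Tfpi2 fell, and 5 did not pass the test, with a median of -0.13. Over all genes tested, 45.1% were called. A2m, alpha-2-macroglobulin, which traps proteases of all classes, was at 1.71 ± 0.516 FPKM after anti-CD40, whereas controls lay between the floor of 0.01 and 0.0131 FPKM (log2 change 3.98, limma adjusted p = 7.242e-07). A2m thus passed the 0.1 FPKM limit only through its treated mice. Tfpi2, a matrix-bound inhibitor of serine proteases, was at 18.6 ± 2.28 against 27.9 ± 6.33 FPKM (log2 change -0.56, limma adjusted p = 0.0269), and its call was lost with quantile normalization (0.0907), without the Saa genes (0.432), with every gene tested (0.0668), and without treated mouse 2 (0.0554), 5 (0.0503), or 9 (0.119). The median of this list turned to 0.15 and 0.24 under the first 2 of these settings, beside -0.091 and 0.35 over all genes.

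The plasminogen system, which opens MMP proenzymes, had 5 of 11 genes higher, 2 lower, and 4 not called. This stood beside 23.5% higher and 21.7% lower among all genes. The median of the 11 genes was 0.076. Among the increases were those of Plaur, the urokinase receptor (4.25 ± 0.428 against 0.397 ± 0.221 FPKM, log2 change 3.24), and Plau, urokinase itself (4.11 ± 1.35 against 0.614 ± 0.252 FPKM, 2.58). The limma adjusted p-values were 3.421e-05 and 4.383e-05. An activator and its receptor thus rose together. Serpinb2, a urokinase inhibitor of the same list, rose as well (0.752 ± 0.0639 against 0.0901 ± 0.0728 FPKM, log2 change 2.26, limma adjusted p = 3.700e-04). Its control mean was below the 0.1 FPKM limit, so it was tested only because of its treated mice. Plg, plasminogen itself, was not called (log2 change -0.35, limma adjusted p = 0.156). Serpinb2 and Plg were chosen after their values were seen. Klkb1, plasma prekallikrein, and Pcsk6, a proprotein convertase, fell by 1.12 and 1.07 on the log2 scale (limma adjusted p = 0.00133 and 0.00241).

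Among 17 tested ADAM and ADAMTS proteases, which are relatives of MMPs, 10 rose, 1 fell, and 6 were not called, with a median of 0.72. Over all genes tested, 23.5% were higher and 21.7% lower. With every gene of the table tested, 7 of the 20 listed proteases rose and 1 fell, beside 3143 higher and 2535 lower of 24326 genes. Adam8, a leukocyte sheddase, rose most (2.95 ± 0.246 against 0.113 ± 0.0606 FPKM, log2 change 3.89), followed by the aggrecanase Adamts4 (2.75) and by Adam15 (1.36), with limma adjusted p-values of 2.290e-06, 1.146e-05, and 6.105e-05. The control means of Adamts4 (0.0223 FPKM), Adam12 (0.0537 FPKM, called higher), and Adamts14 (0.0942 FPKM, not called) were below the 0.1 FPKM limit. These genes were tested only because of their treated mice. Adamdec1 fell (0.301 ± 0.139 against 1.89 ± 0.349 FPKM, log2 change -2.35, limma adjusted p = 2.631e-05). Adam17, the TNF sheddase that TIMP3 inhibits, was chosen after its values were seen: it rose from 19.5 ± 1.66 to 34.0 ± 6.37 FPKM (log2 change 0.79, limma adjusted p = 6.775e-04).

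Of 31 tested matrix proteins, the substrates of these proteases, 17 rose, 3 fell, and 11 were not called, beside 23.5% higher and 21.7% lower among all genes, with a median of 0.79. At a mean FPKM of at least 1, 10 of 22 rose and 2 fell, beside 2182 higher and 2703 lower of 10155 genes. The largest increases were those of the proteoglycan Vcan (6.30 ± 0.839 against 0.0867 ± 0.0493 FPKM, log2 change 5.13), the secreted phosphoprotein Spp1 (25.5 ± 8.70 against 5.05 ± 2.36 FPKM, 2.39), and the basement membrane collagen Col4a1 (15.6 ± 1.60 against 3.07 ± 0.367 FPKM, 2.31), with limma adjusted p-values of 3.041e-07, 8.488e-04, and 8.921e-07. The control mean of Vcan was below the 0.1 FPKM limit, so Vcan was tested only because of its treated mice. The genes that fell were Ecm1 (log2 change -2.08), Col14a1 (-1.22), and Lamb2 (-0.64, limma adjusted p = 0.0475). The call of Lamb2 was lost without the Saa genes (adjusted p = 0.214), with a pseudocount of 1 (0.0617), with every gene tested (0.0793), and without treated mouse 2, 5, or 9 or control 3, 4, 7, or 12 (0.0574 to 0.147).

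**Figure D3:**
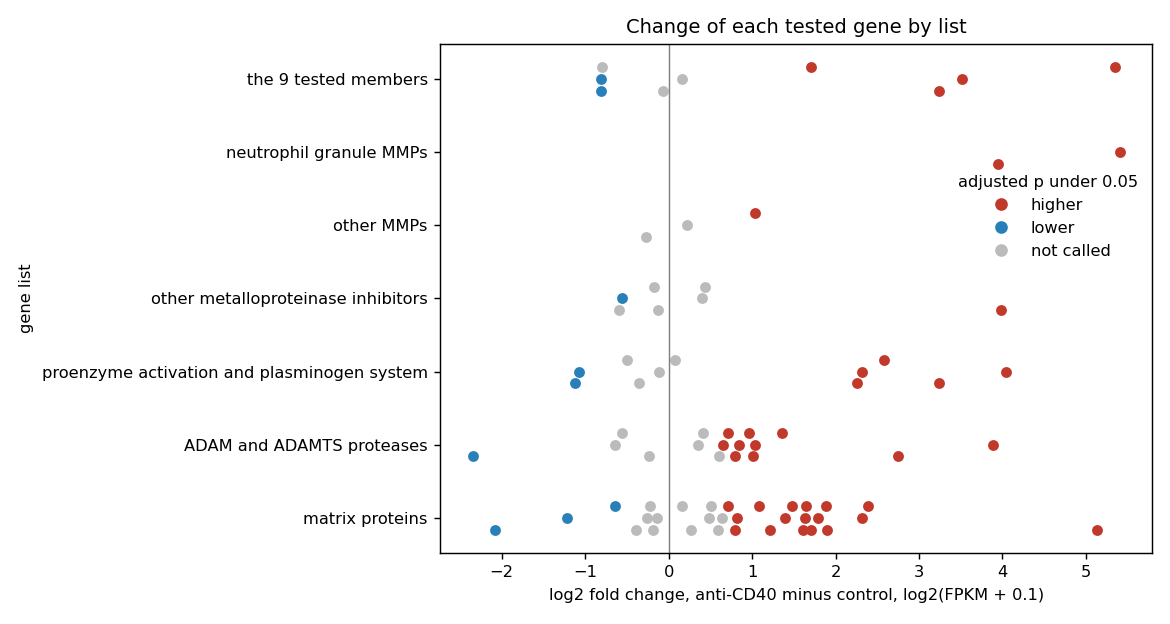
Log2 fold change (anti-CD40 minus control) of every tested gene of each list, 1 point per gene, coloured by whether limma called it higher, lower, or not at all at an adjusted p under 0.05. The medians are 0.15 for the 9 genes of interest, 0.72 for ADAM and ADAMTS proteases, and 0.79 for matrix proteins.

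Markers of several liver cell types moved along with these genes, and their part in the changes was not tested. Over all genes tested, 23.5% were higher and 21.7% lower. Of 11 markers of monocytes and recruited macrophages, a known source of Mmp12, 7 were higher, 1 lower, and 3 not called, and their summed FPKM was 309 to 419 after anti-CD40 and 66.9 to 103 in controls. All 7 Kupffer cell markers were lower (summed FPKM 39.1 to 50.7 against 290 to 466). All 7 tested neutrophil markers were higher (4213 to 5200 against 18.3 to 156), and control mouse 4, which had the highest Mmp12 and Timp1 of its group, also had the highest control sums for neutrophils (156), stellate cells and fibroblasts (135), mesothelial cells (33.8), and cholangiocytes (12.4). With every gene of the table tested, 7 of 9 neutrophil markers were higher, beside 3143 of 24326 genes.

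The counts that follow stand beside 23.5% higher and 21.7% lower among all genes. Of 14 tested markers of stellate cells and fibroblasts, a known source of Timp1, Timp2, and Mmp2, 3 were higher, 5 lower, and 6 not called. Their summed FPKM was 42.7 to 46.4 after anti-CD40 and 95.5 to 135 in controls. Colec11, which made up most of the control sums, was at 8.19 ± 0.701 FPKM after anti-CD40 and 62.8 ± 9.02 FPKM in controls. Gfap was at the floor in all treated mice, but its control mean was only 0.0841 FPKM and it was below the limit for testing. Lrat and Reln were lower (log2 change -1.23 and -2.06). Pdgfrb was higher (2.66 ± 0.430 against 1.22 ± 0.379 FPKM), as were Hgf (log2 change 0.78) and Pdgfra (0.64). The call of Pdgfra was lost under several settings, among them quantile normalization (limma adjusted p = 0.332). The median of this list was -0.17, and 0.18 without the Saa genes, a scaling that moved the median of all genes to 0.35. Endothelial markers had 2 of 10 higher, 5 lower, and 3 not called (summed FPKM 89.0 to 97.5 against 100.2 to 123), with a median of -0.48. Without the Saa genes, 4 were higher and 3 lower, with a median of -0.13. Under that scaling, 5593 of 13804 genes were higher and 1649 lower, with a median of 0.35. Of 7 hepatocyte markers, 5 were lower, 1 higher, and 1 not called. No mesothelial marker of 5 was called (11.0 to 17.4 against 7.39 to 33.8), and none of 7 tested exocrine pancreas genes. Of 4 tested cholangiocyte markers, only Sox9 was called, and it was higher (log2 change 3.57).

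**Figure D4:**
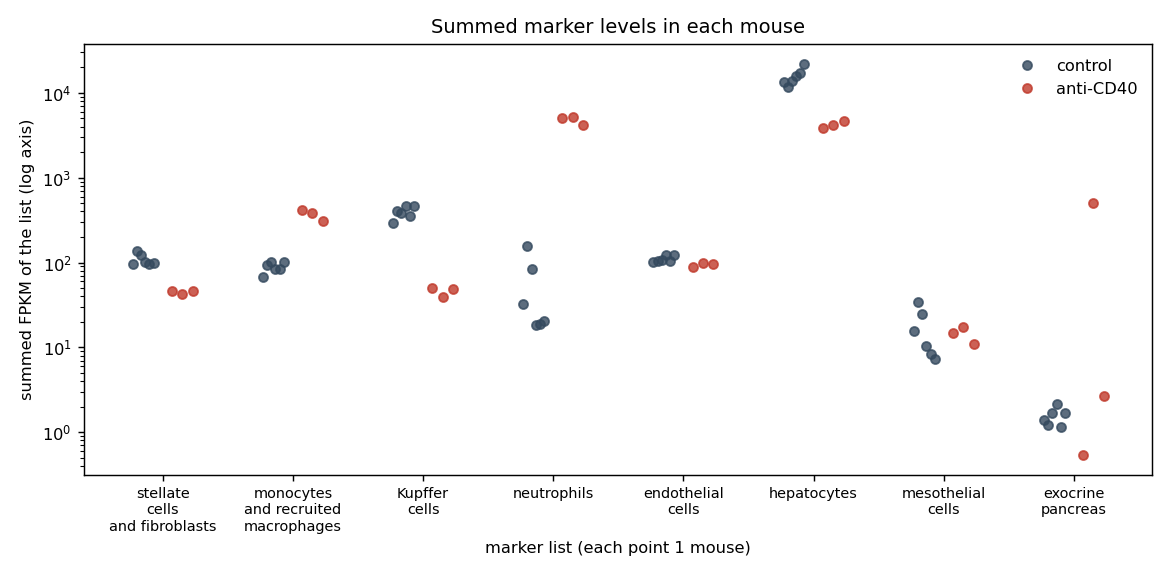
Summed FPKM (log axis) of marker lists for 8 cell types or tissues in each mouse, with control mice (n = 6) and anti-CD40–treated mice (n = 3) side by side; each point is 1 mouse. Monocyte and neutrophil sums are higher and Kupffer cell, hepatocyte, endothelial, and stellate cell sums lower in all treated mice. Colec11 alone makes up most of the control sums of stellate cells and fibroblasts. Treated mouse 5 stands alone at 498 for exocrine pancreas.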

How the data were processed

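RNA from 9 livers was sequenced by the authors from the 3′ end (QuantSeq FWD, Illumina NextSeq). Per the submitters' processing notes and the study's methods, reads were aligned to mm10 with STAR, and Cufflinks and CuffDiff gave the values. The deposited values are FPKM, 1 per gene name and mouse, with a floor of 0.01. The annotation, the strand setting, and any filter are not given in the sources used here. Library totals are unknown, so no counting interval was computed. Relative depth and whole reads were inferred from the steps of low FPKM values: of 2538 low genes, 75.6% were whole in every mouse (within 0.03 reads) and 0% after shuffling the mice 10 times.

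Mice were grouped by their treatment label, and their p-values measure the spread between these mice. After 15 genes with a failed estimate were left out, 24326 remained, and the 13807 with a mean FPKM of at least 0.1 were tested as log2(FPKM + 0.1) with limma 3.58.1 in R 4.3.3 (lmFit, eBayes with trend; 2-sided; Benjamini-Hochberg over all genes; called under 0.05). The exact permutation test used all 84 splits of 3 and 6 mice (scipy 1.17.1). The fit was tested on simulated data. No set test was run. Python 3.11.15, numpy 2.4.6, pandas 2.3.3, and matplotlib 3.10.9 did the rest.

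The 10 genes, the gene lists, the markers, and the pairs were chosen with earlier results of these data known. Named genes are the 10, Mmp8 and Mmp9, the genes that hold a TIMP gene within them, the 3 largest increases and decreases called in each pathway list, and the 3 genes most like Timp1 and Mmp14. A gene that this rule took from the plasminogen list is not reported here. Ly6g and Tf were listed as markers but not matched in the table, and Sparc had a failed estimate. The alternatives tried were other pseudocounts, filters, scalings, and eBayes settings, and leaving out each mouse.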

Additional observations from a re-analysis of the deposited data

Results flagged for a closer look

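Control mouse 4 stood apart from the other 5 controls in 2 of the 10 genes by Dixon's criterion, which compares the gap to the nearest mouse with the range of the group at the 95% level. For Mmp12 (0.555 FPKM) the gap was 0.876 of the range, and for Timp1 (5.46 FPKM) it was 0.727. Chance gives such a gap in about 1 of 20 genes if values are normally distributed, and the criterion was applied to FPKM without a log. On the log2(FPKM + 0.1) scale, Timp1 was 2.47 in control mouse 4 and -2.38 to 0.73 in the other controls. The criterion was not applied on that scale, so the flag of Timp1 may depend on the scale. Without this mouse, the log2 change of Mmp12 was 3.80 and that of Timp1 was 5.83.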

How the results depend on the processing

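Of 174 alternative values for the 10 genes, 155 kept their direction and their side of the threshold. The sign of Mmp2 turned without the Saa genes (0.25), but relative to the median of all genes under that scaling it stood at -0.094. Leaving out 1 mouse gave -0.24 to 0.074 for Mmp2. The turns were to 0.064 without anti-CD40–treated mouse 5, 0.039 without control 4, and 0.074 without control 7. Mmp13 changed by 0.34 with quantile normalization (exact permutation p = 0.381) and by 0.52 to 0.73 with 1 mouse left out. Mmp15 ranged from -1.04 to -0.58 with 1 mouse left out. Timp2 was -0.81 but not called with every gene tested, -0.45 without the Saa genes, and -0.94 to -0.71 with 1 mouse left out. Timp3 was 0.52 without the Saa genes. With 1 mouse left out, the differences between genes ranged from 5.74 to 6.56 (Timp1 and Timp2), 4.77 to 5.66 (Timp1 and Timp3), 2.33 to 2.69 (Mmp14 and Mmp15), and 1.59 to 1.97 (Mmp14 and Mmp2), and without a treated mouse no exact permutation p below 0.0714 is possible. Among other MMPs, 2 genes that were otherwise too low to test, Mmp7 and Mmp25, were called with every gene tested and Mmp23 was not; the count was 0 with quantile normalization and 0 to 1 with 1 mouse left out. Among other inhibitors, 1 was called with every gene tested, 1 at a mean FPKM of at least 1, and 1 to 3 with 1 mouse left out. At a mean FPKM of at least 1, 6 of 8 tested ADAM and ADAMTS genes and 12 of 22 matrix genes were called. Over all genes, 4885 of 10155 were called at that limit and 5678 of 24326 with every gene tested.

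Without the Saa genes, 77.2% of the genes called were higher (5593 against 1649 lower), beside 52.0% in the fit as reported, and the median of all genes moved to 0.35. Over all genes, 4814 to 6830 were called with 1 mouse left out, beside 6230. No paired analysis was possible because the mouse numbers are not shared between the groups. FPKM without library totals and 3 treated mice limit the precision.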

Other observations

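Mmp7, matrilysin, and Mmp25, a membrane-anchored MMP of leukocytes, were below the limit for testing and were chosen after their values were seen. By the smallest whole reads that match its FPKM, Mmp7 had 3, 1, and 4 reads in anti-CD40–treated mice 2, 5, and 9 and 0 in all 6 controls. Mmp25 had 8, 8, and 3 reads in the treated mice and 0 or 1 in controls. With every gene of the table tested, limma called both higher (adjusted p = 0.00406 and 0.00214). Mmp10, also chosen after its values were seen, had 1 read, in treated mouse 9. Mmp1a, Mmp1b, Mmp20, and Mmp21 were at the floor in all 9 mice.

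Among the controls, the highest value of the 10 genes was most often that of mouse 7 (5 genes) and the lowest that of mouse 12 (5 genes). Mouse 4 was highest in 3 genes and lowest in 3.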
